A study of Bos taurus with 3 samples.

Results

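The cells described here are rumen epithelial cells with high levels of immediate-early genes and no detected transcript of DLK2. They were selected on measured values. In each cell the transcripts of FOS, FOSB, EGR1, JUNB, ZFP36 and MAFF were summed per 10000 UMIs (unique molecular identifiers, which count each captured transcript a single time). Among cells with 0 UMIs of DLK2 and 0 UMIs of GJA1, those in the top 10% of this sum in their own cow were taken as immediate-early-high cells. Cows 1, 2 and 3 gave 139, 312 and 675 such cells, in all 1126 of the 20728 cells (5.43%). They were set against the bottom 50% of the same 11233 DLK2-negative, GJA1-negative cells, with 691, 1556 and 3371 cells, called immediate-early-low cells below. The same split of DLK2-positive, GJA1-negative cells gave 741 high and 3699 low cells for comparison.

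The tissue came from the ventral rumen sac of 3 adult lactating Holstein dairy cows under 1 condition, with no treatment groups and 1 library per cow. The cells were freed with EDTA, trypsin and a mix of further enzymes, passed through a removal of dead cells, and measured by 10x droplet sequencing. The authors kept epithelial cells only. The study took DLK2 as a marker of granule cells and GJA1 as a marker of channel-gap-like spinous cells.

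Immediate-early genes are switched on within minutes of a stimulus, without new protein synthesis, and their transcripts decay fast. They respond to growth factors through the MAP kinase cascade and serum response factor, and also to stress, injury and the handling of tissue. Many encode transcription factors (the FOS and JUN proteins that pair as AP-1, and the EGR, KLF and NR4A families), while others damp the response (the mRNA-decay factor ZFP36, the phosphatase DUSP1 and the EGF receptor inhibitor ERRFI1). The rumen wall is a stratified keratinised epithelium in which basal cells divide, and upper layers differentiate, absorb short-chain fatty acids and make ketone bodies.

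The 3 cows differed in the sum itself, and cow 3 stood apart. The median sum over DLK2-negative, GJA1-negative cells was 12.6, 29.4 and 1.77 UMIs per 10000 in cows 1, 2 and 3. The lowest sum among the selected cells was 65.4, 73.5 and 18.0 per 10000 in cows 1, 2 and 3, and the highest cell just outside had 65.3, 73.4 and 17.99. The selected cells of cow 3 thus began at a level below the highest low cell of cow 2, which had 29.4. A cut of 40 per 10000 used in every cow would have taken 22.6% of the DLK2-negative, GJA1-negative cells of cow 1 (95% Wilson interval 20.5 to 24.9), 37.2% in cow 2 (35.5 to 38.9) and 1.79% in cow 3 (1.50 to 2.14). The high cells are therefore high for their own cow, and 35 barcodes occurred in more than 1 library, which touched 3 of the selected cells (1, 0 and 2).

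The selected cells were shallower than the cells they were compared with. Their median depth was 5711, 8101.5 and 6429 UMIs in cows 1, 2 and 3, against 11356, 13695 and 10408 in low cells. Their median number of genes was 1606, 1797 and 1540, against 2184, 2211 and 2124. Transcripts of the 13 protein-coding genes of the mitochondrial genome made up a median of 11.8%, 8.71% and 9.40% of UMIs, against 20.9%, 11.7% and 13.1%. Depth and mitochondrial share thus moved with the split in all 3 cows, and a count of 0 for DLK2 says less in a shallower cell. In bulk sums such as those used below, fewer cells of a kind and less RNA per cell cannot be told apart.

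**Figure D1:**
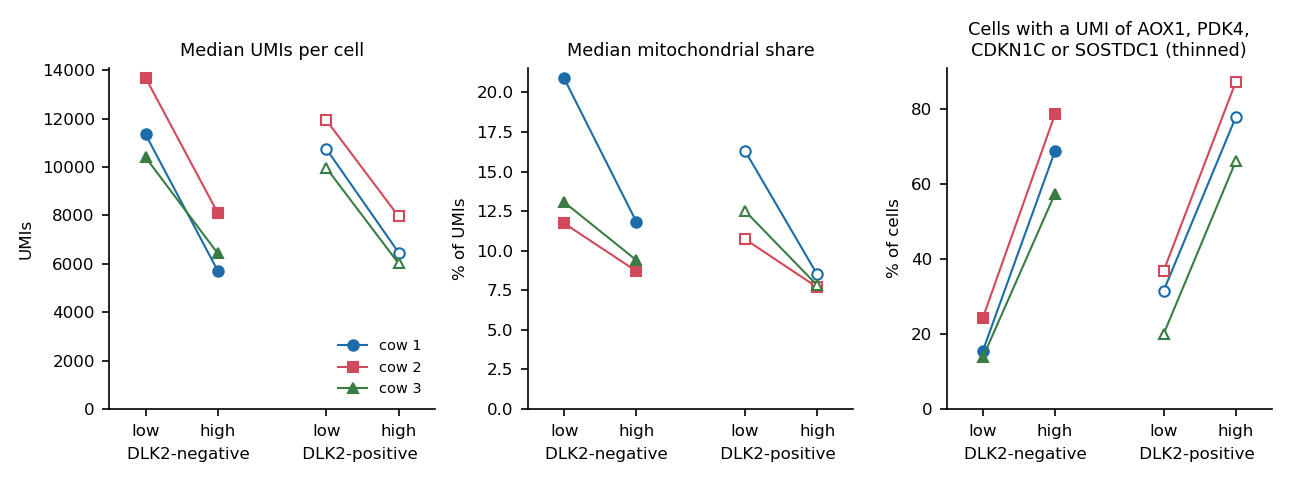
Median UMIs per cell, median mitochondrial share of UMIs and share of cells with a UMI of AOX1, PDK4, CDKN1C or SOSTDC1 after thinning to 3000 UMIs, for low and high cells of each cow (filled: DLK2-negative, open: DLK2-positive, lines join the sets of a cow). In every cow the high cells had fewer UMIs, a lower mitochondrial share and the larger share of cells with these transcripts, with and without DLK2.

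The 6 summed genes did not contribute equally. In the selected cells JUNB gave 34.2% ± 5.41 of the summed UMIs, FOS 22.4% ± 7.90, EGR1 20.5% ± 5.61, ZFP36 12.8% ± 5.73, FOSB 8.72% ± 1.62 and MAFF 1.43% ± 1.17 (mean ± SD, n = 3 cows). JUNB, the partner of FOS in AP-1, was found in 138 of 139, 312 of 312 and 670 of 675 selected cells. MAFF, a small MAF factor, was found in 36, 222 and 95 of them. These values describe the choice and carry no test.

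Each summed gene was then tested after it was left out, with cells chosen by the other 5. All 6 were higher in the cells so chosen (edgeR quasi-likelihood test on UMI sums per cow, with the cow as a block). The 6 genes were put together with earlier results of these data known. These tests therefore describe how the 6 genes vary together and are not independent evidence. EGR1, a zinc-finger factor, stood at 17.2, 22.1 and 3.79 UMIs per 10000 in high cells of cows 1, 2 and 3, against 0.636, 3.62 and 0.0886 in low cells. Its log2 fold change was 4.13 (SE 0.46, edgeR adjusted p = 6.6e-05). ZFP36 stood at 7.08, 16.2 and 2.69 against 0.312, 2.18 and 0.110, a log2 fold change of 3.87 (SE 0.33, edgeR adjusted p = 0.00011). High and low cells did not overlap across cows for either gene. The share of all genes with no such overlap was not counted, so here and below it describes single genes only. FOSB had a log2 fold change of 3.74 (SE 0.59), FOS 3.49 (SE 0.45), JUNB 3.44 (SE 0.31) and MAFF 3.09 (SE 0.18), with edgeR adjusted p from 7.5e-06 to 0.0012. All 6 were larger without cow 2 and smaller without cow 3, FOSB at 4.75 and 2.76, FOS at 4.30 and 2.82 and EGR1 at 4.98 and 3.42. FOS, FOSB and JUNB did not overlap either, while MAFF did, because its level of 0.209 in high cells of cow 3 was under the 0.320 of low cells of cow 2. Of all genes tested, 9.9% were higher in the cells chosen without FOS, 10.9% without FOSB, 10.9% without EGR1, 9.65% without JUNB, 10.3% without ZFP36 and 10.5% without MAFF. Without the cow as a block none of the 6 passed, with edgeR adjusted p from 0.126 to 0.249.

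**Figure D2:**
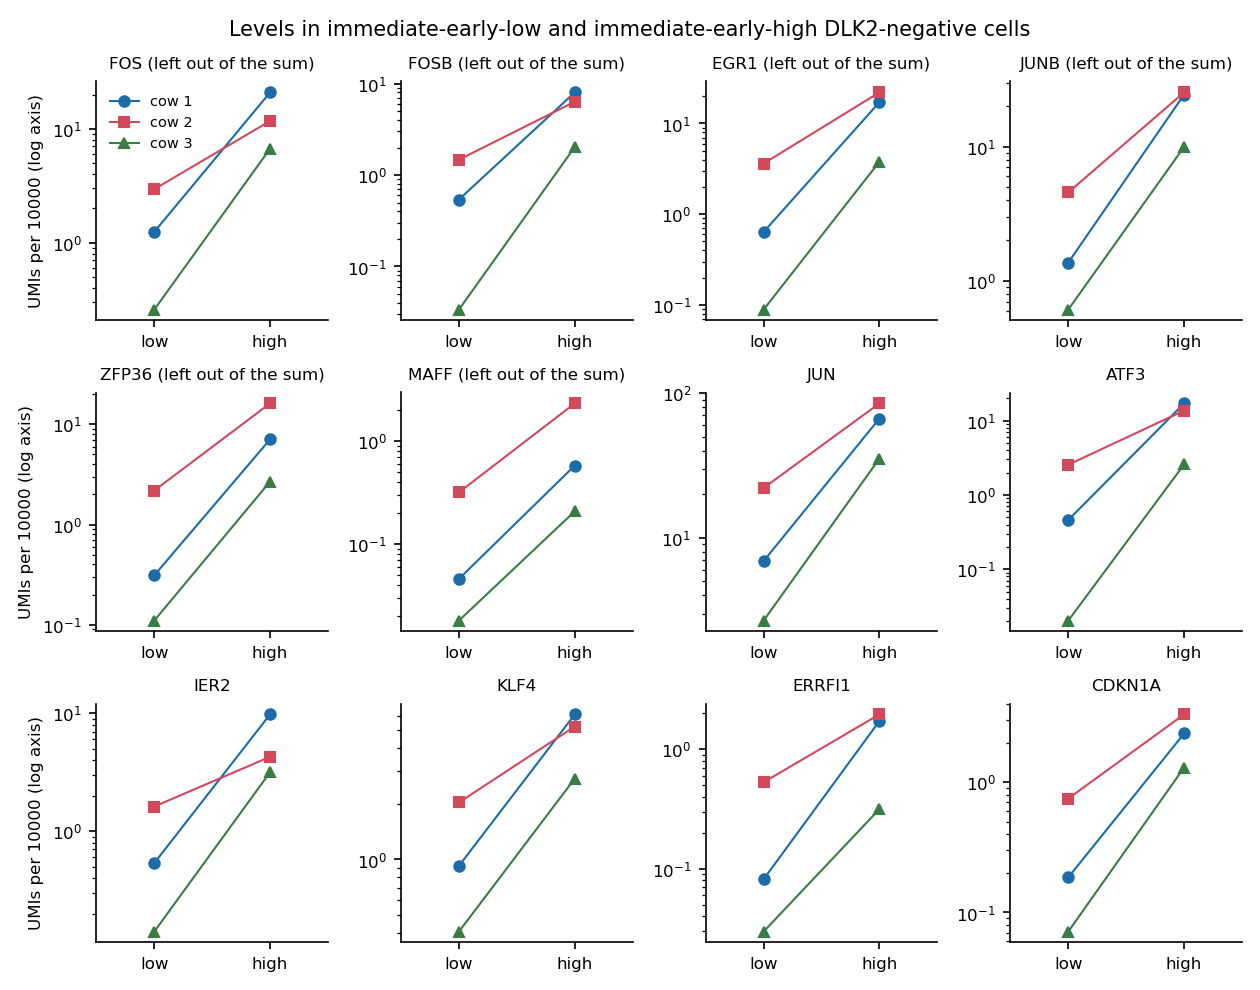
Level in UMIs per 10000 (log axes) of the 6 summed genes, each in cells chosen by the other 5, and of 6 further early response genes, in low and high DLK2-negative cells (lines join the 2 sets of a cow). Every line rises, and cow 3 has the lowest low-cell level in all 12 panels.

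Beyond the 8 genes that the selection read, 10161 genes were tested, of which 13.5% (1376) were higher in the immediate-early-high cells and 16.4% (1664) were lower. A gene was called at an edgeR adjusted p under 0.05, a log2 fold change over 0.25 in size and the same sign in all 3 cows. The median log2 fold change of all genes tested was -0.01. Without the scaling factors 1542 were higher and 1080 lower, so that the share of calls that were higher rose from 45.3% to 58.8%. Against low cells drawn to the depth of the high cells the counts fell to 601 higher and 478 lower of 8427 genes tested. Among cells with at least 12000 UMIs they were 592 and 535 of 8920. Counts of listed genes under these choices are to be read against these totals. Without cow 2 the counts over all genes were 993 and 1060, without cow 3 they were 1046 and 1263, and with no term for the cow 163 and 137. The genes were chosen for description by lists, and the same cells supplied the sum and the other genes, so a gene that varies with the sum from cell to cell differs through the choice of cells itself.

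Transcription factors of the early response rose together. Of the 28 such factors outside the sum (AP-1, EGR, ATF, NR4A, KLF and ID families), 24 passed the filter on low counts and 20 of these were higher, none lower, with a median log2 fold change of 2.05. Set against the lower 90% of cells in place of the lower 50%, 16 were higher, with a median of 1.32. JUN, the main AP-1 partner of FOS, stood at 66.6, 84.7 and 35.2 UMIs per 10000 in high cells against 6.92, 22.1 and 2.68 in low cells (log2 fold change 2.84, SE 0.37, edgeR adjusted p = 3.5e-05). ATF3, a stress-induced factor that pairs with JUN, stood at 17.1, 13.7 and 2.57 against 0.460, 2.55 and 0.0204, a log2 fold change of 4.46 (SE 0.75). This value was 5.96 without cow 2 and 3.35 without cow 3. The lowest high-cell value of ATF3, in cow 3, lay only just above the highest low-cell value, in cow 2. KLF10, a target of TGF-beta signalling, had a log2 fold change of 2.17 (SE 0.11), at 1.36, 3.43 and 0.904 against 0.248, 0.670 and 0.213. KLF4, a factor of keratinocyte differentiation, stood at 6.11, 5.25 and 2.74 against 0.924, 2.04 and 0.407 (2.13, SE 0.30). The growth regulator MYC rose by 1.67 (SE 0.12) and the orphan receptor NR4A1 by 2.74 (SE 0.41) on the log2 scale, with NR4A1 at 3.76 without cow 2 and 2.12 without cow 3. KLF5 had 2.46, 1.98 and 1.80 against 2.17, 1.70 and 1.76, a log2 fold change of 0.02 (SE 0.11). SRF, the serum response factor itself, was higher by 0.60 (SE 0.20, edgeR adjusted p = 0.031) but did not pass without cow 1 or without cow 2, nor against low cells matched on UMIs.

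Further early response genes were higher almost without exception, with 30 of 32 tested genes higher, none lower and a median log2 fold change of 1.86. CDKN1A, which encodes the cell cycle inhibitor p21, stood at 2.37, 3.33 and 1.30 against 0.186, 0.751 and 0.0714, with no overlap between high and low (log2 fold change 3.12, SE 0.45, edgeR adjusted p = 7.6e-05). All 3 GADD45 genes, which act in growth arrest and stress signalling, were higher, with log2 fold changes of 3.37 for GADD45B, 2.72 for GADD45A and 2.49 for GADD45G. GADD45G did not pass without cow 1, and its value was 1.14 without cow 3 and 4.02 without cow 2. GADD45B was at 2.51 without cow 3 and 4.45 without cow 2, CDKN1A at 2.51 and 3.88, and without cow 2 BTG2 was at 4.09 and GADD45A at 3.32. The antiproliferative genes BTG2 and BTG1 rose by 2.87 (SE 0.35) and 1.86 (SE 0.12). ZFP36L1 and ZFP36L2, relatives of the summed gene ZFP36 that also bind AU-rich mRNA, rose by 1.73 (SE 0.14) and 1.66 (SE 0.11). BTG3 and ARRDC4 did not pass, with values of 0.11 (SE 0.12) and 0.16 (SE 0.26).

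Genes that switch off MAP kinase signalling were higher as well. Of 13 tested, 9 were higher and 1 lower, with a median log2 fold change of 1.71. ERRFI1, which blocks the EGF receptor, was not in the sum, but was picked as a marker with earlier results of these data known. It is therefore not independent evidence. ERRFI1 stood at 1.72, 1.95 and 0.315 UMIs per 10000 against 0.0815, 0.528 and 0.0298 (log2 fold change 2.76, SE 0.37, edgeR adjusted p = 3.9e-05). Each cow's high cells exceeded its own low cells, but the high cells of cow 3 lay under the low cells of cow 2, and its change was 3.74 without cow 2. DUSP1, a phosphatase of MAP kinases, rose by 2.78 (SE 0.66), but did not pass without cow 1 and stood at 1.70 without cow 3 and 3.96 without cow 2, and the receptor signalling inhibitors SPRY1 and SPRY2 rose by 2.28 (SE 0.13) and 2.04 (SE 0.18). DUSP7 was the gene called lower (-0.34, SE 0.12), and it lost its call in DESeq2, when any 1 cow was left out and against low cells matched on UMIs. Among the EGF receptor and its ligands 3 of 7 were higher and 1 lower. The ligands HBEGF and AREG rose by 1.90 (SE 0.29) and 1.77 (SE 0.27), and the receptor EGFR by 0.57 (SE 0.11). Without cow 2 HBEGF was at 2.69. EGFR did not pass against low cells matched on UMIs (0.23). ERBB3, called lower at -0.75 (SE 0.24), lost its call in DESeq2 and when any 1 cow was left out.

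Of 19 tested genes of the NF-kB response, 10 were higher and 3 lower, with a median log2 fold change of 1.20. NFKBIA, the inhibitor that NF-kB itself induces, stood at 1.29, 8.79 and 1.51 UMIs per 10000 against 0.392, 1.49 and 0.388 (log2 fold change 2.00, SE 0.18). The level in cow 2 was far above that in the other cows. IRF1, an interferon-regulated factor, rose by 3.80 (SE 0.22), the neutrophil chemokine CXCL3 by 3.16 (SE 0.44) and the adhesion molecule ICAM1 by 3.11 (SE 0.31). IL6 was called higher, but rests on few transcripts, with 188 UMIs in high and 100 in low cells, most of them from cow 2 (0.640 against 0.0452 UMIs per 10000) and none in low cells of cow 3. Without cow 3 the change of CXCL3 was 2.26. The subunits NFKB1, RELA and REL did not pass, with log2 fold changes of 0.14, 0.21 and -0.16. Of 11 targets of YAP and TEAD, 5 were higher and none lower. The matrix protein THBS1 stood at 3.76, 1.47 and 0.365 against 0.139, 0.153 and 0.0204 (3.82, SE 0.26), and CCN1 rose by 2.43 (SE 0.24).

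Few heat shock genes were called, and cow 1 stood apart. Of 22 tested, 2 were higher and 4 lower, with a median log2 fold change of 0.04. These counts are near the shares over all genes tested, 13.5% higher and 16.4% lower. Summed over the list, they made up 104, 67.5 and 69.2 UMIs per 10000 in high cells against 71.3, 68.8 and 71.3 in low cells, so that the sum was higher in cow 1 and not in cows 2 and 3. DNAJB1, a partner of HSP70, stood at 5.18, 2.30 and 1.65 against 1.63, 2.11 and 0.678 (0.85, SE 0.25, edgeR adjusted p = 0.017) but was not called, as its sign was not the same in all 3 cows after TMM scaling. HSPA1A, the inducible HSP70, stood at 18.5, 7.01 and 7.60 UMIs per 10000 in high cells against 12.5, 11.1 and 5.77 in low cells, higher in cows 1 and 3 and lower in cow 2 (log2 fold change -0.05, SE 0.22, edgeR adjusted p = 0.89). HSPB1 stood at 16.3, 12.9 and 15.4 against 12.4, 12.4 and 13.5 (0.08, SE 0.11). The genes that rose were HSPA5, the chaperone of the endoplasmic reticulum, by 1.82 (SE 0.21), and DNAJA1 by 0.96 (SE 0.24), which did not pass without cow 1. The 4 that fell were HSPA4 and the mitochondrial chaperones HSPD1, HSPE1 and HSPA9. Of 12 genes of the ATF4 and unfolded protein response, 5 were higher and 3 lower. Those higher included DDIT3, which encodes the stress factor CHOP, by 1.87 (SE 0.13), and ATF4 by 0.68 (SE 0.09), and those lower were the serine synthesis genes PHGDH, PSAT1 and PSPH. None of these 3 passed among cells with at least 12000 UMIs, and PHGDH (-0.28) lost its call when any 1 cow was left out.

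**Figure D3:**
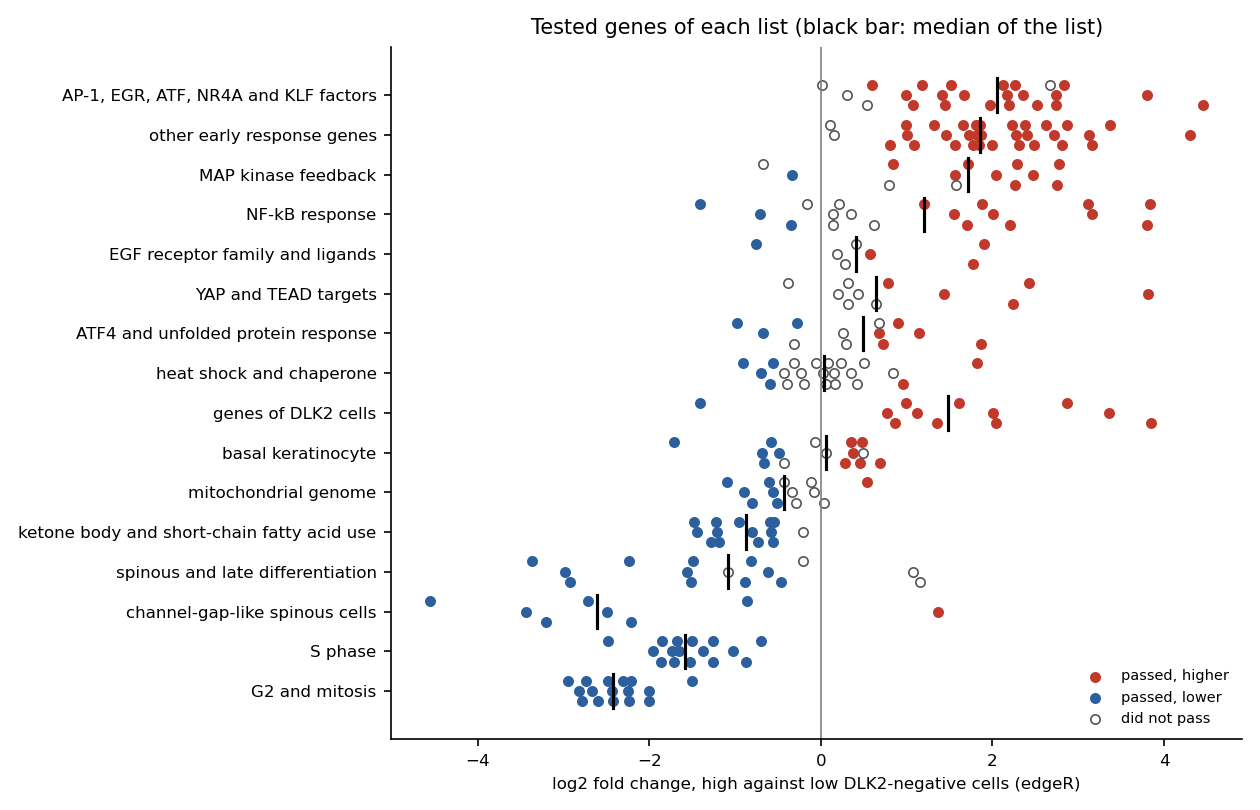
Log2 fold change of every tested gene of 16 lists, high against low DLK2-negative cells (filled red: called higher, filled blue: called lower, open: not called, black bar: median of the list, rows of points are spread only to be seen). Early response lists lie to the right, the cell cycle, channel-gap and differentiation lists to the left, and the heat shock list around 0.

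Although DLK2 had 0 UMIs in each selected cell, other genes of DLK2 cells were higher there. Of 12 such genes tested, 11 were higher and 1 lower, with a median log2 fold change of 1.48. The list came from the study, which picked these genes on the same libraries, and it is not independent evidence. Against low cells matched on UMIs 9 of 12 were higher, with a median of 0.88. CDKN1C, which encodes the cell cycle inhibitor p57, stood at 1.33, 1.08 and 1.39 UMIs per 10000 against 0.103, 0.0965 and 0.139, nearly the same in every cow (log2 fold change 3.36, SE 0.11, edgeR adjusted p = 3.8e-11). Its log2 fold change against low cells matched on UMIs was 1.81, and that of AOX1 below was 1.37. PDK4, a kinase that turns off pyruvate dehydrogenase, stood at 5.73, 12.1 and 1.96 against 0.352, 0.892 and 0.109 (3.85, SE 0.23). AOX1, an aldehyde oxidase, stood at 1.26, 0.236 and 0.332 against 0.119, 0.0397 and 0.0440 (2.86, SE 0.21). The groups did not overlap for any of these 3 genes, though the share of all genes with no overlap was not counted. The Notch ligand DLL1 rose by 2.00 (SE 0.13), the retinal reductase DHRS3 by 1.61 (SE 0.12) and the growth factor receptor FGFR2 by 1.12 (SE 0.10). CCL20, a chemokine, was the gene called lower (-1.41, SE 0.34), but its direction turned under other choices and it was higher by 1.86 among cells that also lacked UMIs of AOX1, PDK4 and SOSTDC1.

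Summed over the list, genes of DLK2 cells made up 50.2, 37.1 and 26.4 UMIs per 10000 in the selected cells and 13.3, 12.2 and 12.7 in low cells. In DLK2-positive high cells the sum was 46.9, 42.6 and 31.3, above the selected cells in cows 2 and 3 and below them in cow 1. In DLK2-positive low cells it was 22.1, 20.8 and 18.9, below the selected cells in every cow. DLK2 itself stood at 2.80, 2.28 and 2.09 UMIs per 10000 in DLK2-positive high cells, a level that their choice by at least 1 UMI of DLK2 sets in part. A UMI of AOX1, PDK4, CDKN1C or SOSTDC1 was found in 83.1% ± 8.31 of the selected cells (SD, n = 3) and in 39.3% ± 9.27 of low cells. After each cell was thinned to 3000 UMIs, the shares by cow were 68.9% (95% Wilson interval 59.5 to 76.9), 78.7% (73.7 to 82.9) and 57.5% (53.7 to 61.2). In thinned low cells it was 15.5% (12.8 to 18.5), 24.3% (22.2 to 26.5) and 13.8% (12.6 to 15.0), and in thinned DLK2-positive high cells 77.9%, 87.3% and 66.1%. In thinned DLK2-positive low cells it was 31.5%, 36.8% and 20.0%, below the selected cells in every cow. Thinning left out 33, 12 and 19 of the selected cells as too shallow, and intervals cover counting error only. A UMI of these genes was thus found in more of the selected than of the low cells of each cow, but not in all of them, and the share that free RNA gives was not measured. How many selected cells expressed DLK2 below detection was not tested.

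Levels of early response genes were also compared between selected cells in which those companion genes were seen and in which they were not. Both subsets were chosen for a high sum, which fixes in part how alike they are. Cells with companion genes made up 79.1%, 92.6% and 77.5% of the 139, 312 and 675 selected cells. Levels without them thus rest on the smaller part of each cow's cells. Median depth was 5929.5, 8019 and 6211 UMIs with companion genes and 3087, 9070 and 7721.5 without, so depth also differed between the subsets. Selected cells with a UMI of AOX1, PDK4, CDKN1C or SOSTDC1 had 66.8, 85.5 and 35.6 UMIs of JUN per 10000, and those without had 64.9, 75.2 and 34.1. ERRFI1 stood at 1.69, 1.96 and 0.295 with and 1.86, 1.85 and 0.375 without. KLF4 was lower with companion genes in every cow, at 6.05, 5.10 and 2.63 against 6.42, 6.93 and 3.09, and DUSP1 was lower in cows 1 and 2 but not in cow 3, at 8.69, 5.48 and 5.29 against 9.80, 7.88 and 4.99. The proliferation marker MKI67 stood at 0.0434, 0.0528 and 0.0842 in cells with companion genes against 0.0845, 0.190 and 0.460. These levels rest on very few transcripts in cows 1 and 2. TOP2A, also of cycling cells, stood at 0.0145, 0.0772 and 0.236 against 0, 0.332 and 0.554, and so was not lower in cow 1. These subsets were given without a test. In a further choice, cells with any UMI of AOX1, PDK4 or SOSTDC1 were left out before the selection. Of 9396 genes tested, 667 were then higher and 720 lower. Those higher included 19 of 23 early transcription factors and 30 of 32 further early response genes.

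Proliferation genes were lower in all 3 cows. All 16 genes of S phase and all 16 of G2 and mitosis were called lower, with median log2 fold changes of -1.59 and -2.42. TOP2A, the mitotic topoisomerase, stood at 0.0124, 0.0974 and 0.315 UMIs per 10000 in high cells against 1.45, 0.312 and 1.62 in low cells (log2 fold change -2.74, SE 0.37, edgeR adjusted p = 3.9e-05). The high cells of cow 3 just exceeded the low cells of cow 2, whose low cells had the fewest mitotic transcripts. Summed over the list, G2 and mitosis genes made up 0.321, 0.899 and 2.43 per 10000 against 9.96, 3.13 and 11.0. MCM2, part of the replicative helicase, fell by 1.67 (SE 0.17) and the S phase enzyme RRM2 by 2.48 (SE 0.34) on the log2 scale. RRM2 did not pass against low cells matched on UMIs (-0.93). Among cells with at least 12000 UMIs, 10 of 16 genes of each list were lower, with medians of -0.66 for S phase and -0.99 for G2 and mitosis and -1.17 for TOP2A. When all cells were thinned to 3000 UMIs and high and low cells were chosen anew, 12 of 15 and 14 of 14 were lower, with medians of -1.13 and -1.94. Cells that lost their UMIs of DLK2 or GJA1 by thinning entered those sets, and only 92 of 213, 235 of 557 and 583 of 1042 thinned high cells were among the selected cells.

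Most tested genes of the spinous and late differentiation list were lower too, while KLF4 and genes of DLK2 cells were higher, as given above. Of 26 genes of this list in the matrix, 15 were tested. Of these 15, 11 were lower and none higher, with a median log2 fold change of -1.08. S100A12, an alarmin of differentiating epithelium, stood at 5.36, 6.89 and 10.1 UMIs per 10000 against 33.6, 31.3 and 28.8, with no overlap (log2 fold change -2.24, SE 0.23, edgeR adjusted p = 3.3e-06). S100A8, of the same family, stood at 0.198, 0.337 and 0.729 against 4.57, 2.45 and 3.43 (-2.98, SE 0.31, and -3.65 without cow 3), and the keratin KRT6A at 0.519, 0.970 and 1.88 against 2.01, 2.37 and 4.31 (-1.49, SE 0.15). Among cells with at least 12000 UMIs S100A12 was at -1.43 and S100A8 at -1.67. Among cells without UMIs of AOX1, PDK4 and SOSTDC1 they were at -1.28 and -1.63. CLDN4, a tight junction protein, did not pass at 2.87, 2.41 and 0.967 against 0.455, 2.30 and 0.397, and was called higher without cow 2 (1.78) and against low cells matched on UMIs (1.32). Of this list 4 of 13 tested genes were lower among cells with at least 12000 UMIs and 5 of 12 against low cells matched on UMIs, choices that also used fewer cells. Over all genes tested, 535 of 8920 and 478 of 8427 were lower under these choices. The medians there were -0.51 and -0.70. Among cells without UMIs of AOX1, PDK4 and SOSTDC1, 4 of 13 were lower and 1 higher, with a median of -0.39. In the cells chosen anew after thinning, which were in large part other cells, 9 of 11 were lower, with a median of -0.76.

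Genes of channel-gap-like spinous cells followed, although GJA1-positive cells were left out of both sets. Of 8 tested, 7 were lower and 1 higher, with a median log2 fold change of -2.61. GSTA1, a glutathione transferase, stood at 0.0371, 0.0599 and 0.334 against 1.30, 0.663 and 3.23 (-3.44, SE 0.21). Its value was -1.52 among cells with at least 12000 UMIs and -2.20 among cells without UMIs of AOX1, PDK4 and SOSTDC1. The fatty acid binding proteins FABP4 and FABP5 fell by 3.21 (SE 0.30) and 2.22 (SE 0.28) on the log2 scale. Without cow 3 FABP4 was at -4.11 and GSTA1 at -4.10. TM4SF1, a membrane protein of 1 subtype of these cells, was higher instead, at 0.457, 2.60 and 0.710 against 0.247, 1.57 and 0.133 (1.37, SE 0.36), but did not pass in DESeq2 (1.33) or against the lower 90% of cells (0.61), and its value was 0.64 without cow 3.

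Further genes among the 10 called genes with the most negative changes belonged to none of the lists. The metallothionein MT1E.1, of a family that binds zinc and copper, stood at 0.124, 0.427 and 0.594 UMIs per 10000 against 3.40, 3.27 and 3.54, with no overlap (-3.07, SE 0.23). Its reads may be shared with the similar gene MT1E. TST, which detoxifies sulfide and cyanide, stood at 0.803, 1.56 and 3.23 against 7.20, 6.63 and 9.50 (-2.28, SE 0.26), and the carbonic anhydrase CA1 at 0.111, 0.296 and 0.0486 against 1.40, 1.92 and 0.111 (-2.69, SE 0.27). COX8B, a subunit of cytochrome oxidase, fell by 2.58 (SE 0.37) on the log2 scale and did not pass among cells with at least 12000 UMIs. It was at -1.96 without cow 1 and -3.22 without cow 3. Among those deeper cells MT1E.1 stood at -1.67, TST at -1.08 and CA1 at -1.62.

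Basal keratinocyte genes were divided. Of 15 tested, 6 were higher and 5 lower, with a median log2 fold change of 0.06. The keratins of the basal layer were lower, KRT5 at 28.2, 32.4 and 51.9 UMIs per 10000 against 45.0, 43.0 and 73.2 (-0.66, SE 0.12), KRT14 by -0.58 (SE 0.11) and KRT15 by -0.49 (SE 0.14). The anchoring collagen COL17A1 was higher at 11.9, 6.76 and 5.25 against 6.08, 4.41 and 4.41 (0.48, SE 0.11). TP63, the master factor of the basal layer, had a log2 fold change of -0.07 (SE 0.12). Against low cells matched on UMIs none of 14 tested basal genes was higher and 4 were lower, and neither KRT14, KRT15 nor COL17A1 passed. KRT5, KRT15 and COL17A1 did not pass without cow 2 either.

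Genes of ketone body synthesis and short-chain fatty acid use were lower, 13 of 14 tested and none higher, with a median log2 fold change of -0.87. BDH1, which makes beta-hydroxybutyrate, stood at 0.865, 0.940 and 0.784 against 2.10, 2.03 and 1.56, with no overlap (log2 fold change -1.21, SE 0.12, edgeR adjusted p = 1.8e-06). SLC16A1, the monocarboxylate transporter MCT1, stood at 1.98, 1.42 and 2.96 against 5.41, 3.80 and 4.67 (-1.28, SE 0.17). BDH2 did not pass at -0.21 (SE 0.11). Of this list 7 of 13 were lower against low cells matched on UMIs and 1 of 14, SLC16A1, among cells with at least 12000 UMIs, where BDH1 did not pass (-0.38). Over all genes tested, 478 of 8427 and 535 of 8920 were lower under these choices. The list medians were -0.65 against the matched low cells and -0.41 among those deeper cells. Among cells without UMIs of AOX1, PDK4 and SOSTDC1, 7 of 14 were lower, with a median of -0.61. In the cells chosen anew after thinning 11 of 13 were lower, with a median of -0.77.

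Transcripts of the mitochondrial genome moved unevenly. Of 13 genes, 6 were lower and 1 higher, with COX1 at 152, 193 and 222 UMIs per 10000 against 464, 329 and 300 (-1.09, SE 0.27). COX1 did not pass without cow 2. The gene called higher was ND6, at 6.65, 0.884 and 2.83 against 4.01, 0.604 and 1.71 (0.54, SE 0.13). ND1 stood at 117, 59.1 and 51.4 against 107, 47.6 and 49.0 (0.03, SE 0.14). Over the other choices with the cow as a block 0 to 9 of the 13 were lower, with none lower among cells with at least 12000 UMIs. Of 75 tested genes of ribosomal proteins, a list added after the data were seen, 4 were lower and none higher, with a median of 0.05.

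**Figure D4:**
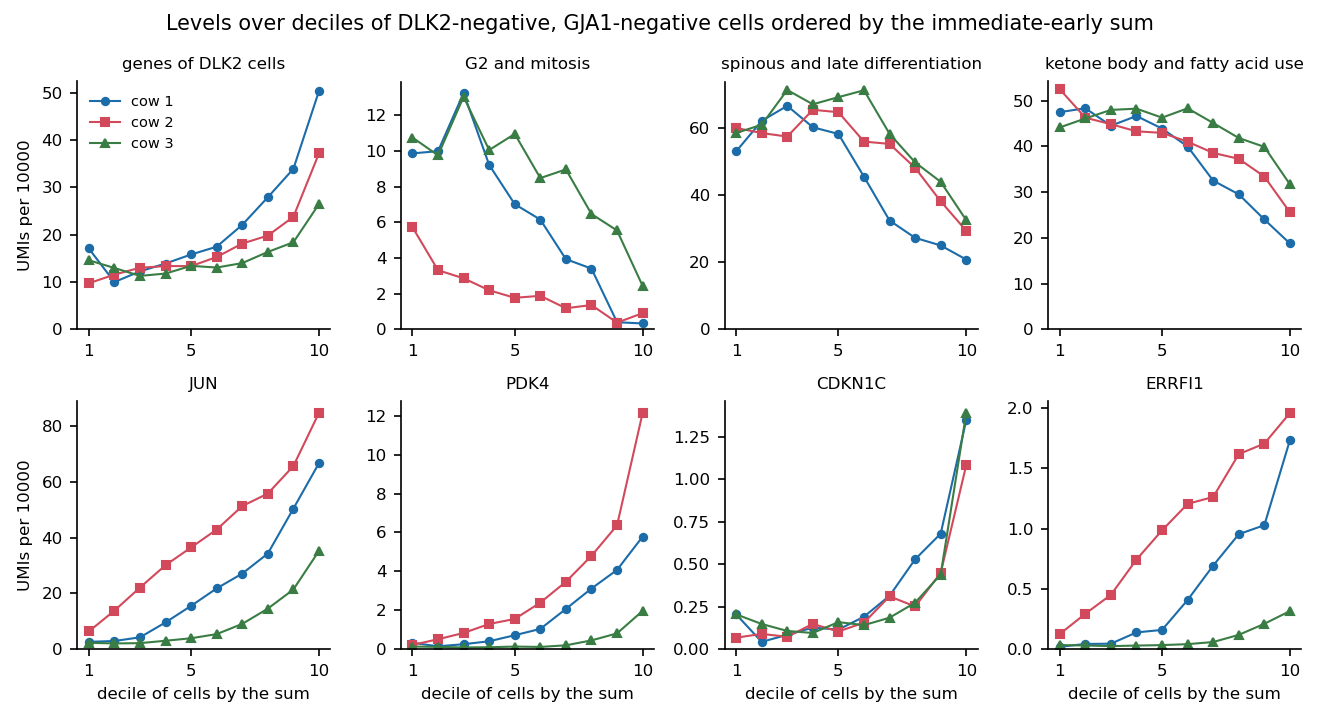
Levels in UMIs per 10000 of 4 gene lists (sums) and 4 genes over deciles of DLK2-negative, GJA1-negative cells ordered by the immediate-early sum within each cow, from decile 1 (lowest) to decile 10 (close to the selected cells). CDKN1C and the genes of DLK2 cells climb steeply at the last deciles, JUN and ERRFI1 climb over a wider part of the order in cows 1 and 2, and the differentiation and ketone body levels fall more over deciles 5 to 10 than before.

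Levels also varied along the order of cells by the sum. CDKN1C stood at 0.679, 0.448 and 0.439 UMIs per 10000 in decile 9 of cows 1, 2 and 3 and at 1.35, 1.08 and 1.39 in decile 10. PDK4 went from 4.07, 6.37 and 0.808 in decile 9 to 5.79, 12.1 and 1.97. The summed ketone body and fatty acid list was at 47.5 and 52.5 in decile 1 of cows 1 and 2, at 29.5, 37.3 and 41.8 in decile 8 and at 18.8, 25.6 and 31.7 in decile 10. Median depth was lowest in decile 10 in each cow. In cow 3, 1818 cells had a sum of 0, so that its deciles 1 and 2 and much of decile 3 are in no order. In cow 1, 148 cells had a sum of 0, which takes in all 139 cells of its decile 1. These levels are a description over cells ordered by the selecting sum.

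A split of DLK2-positive cells by the same percentages changed many of the same genes. There 7.2% of genes (732) were higher and 9.59% (974) lower in the high cells. Genes called higher in both kinds of cell numbered 616, which is 44.8% of those in DLK2-negative cells and 84.2% of those in DLK2-positive cells, and 842 were lower in both (50.6% and 86.4%). Early transcription factors were higher for 16 of 24 in DLK2-positive cells and further early response genes for 29 of 32, with medians of 1.69 and 1.56. Genes of DLK2 cells were higher for 9 of 12, with a median of 1.03, S phase genes were lower for 11 of 16 and G2 and mitosis genes for 12 of 16. The difference between the 2 log2 fold changes was tested for each gene, and 0.0% of genes passed in either direction (edgeR, 0 genes larger and 0 smaller, with 377 and 255 at an unadjusted p under 0.05, and 2 and 0 in DESeq2). CDKN1C changed by 0.91 more in DLK2-negative cells (SE 0.15, edgeR adjusted p = 0.22), PDK4 by 1.02 more (SE 0.30, edgeR adjusted p = 0.67) and JUN by 0.41 more (SE 0.49, edgeR adjusted p = 0.96). In edgeR 22 genes had a larger and 7 a smaller change without the filter on low counts, and 1 and 0 without cow 2. A missed threshold does not show that the changes were equal. The 2 splits also spanned unlike gaps in the sum. The median sum of low cells was 2.14, 12.8 and 0 without DLK2 and 7.80, 16.7 and 0.742 with it. In high cells it was 84.1, 89.2 and 27.8 without DLK2 and 95.4, 96.7 and 33.5 with it.

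**Figure D5:**
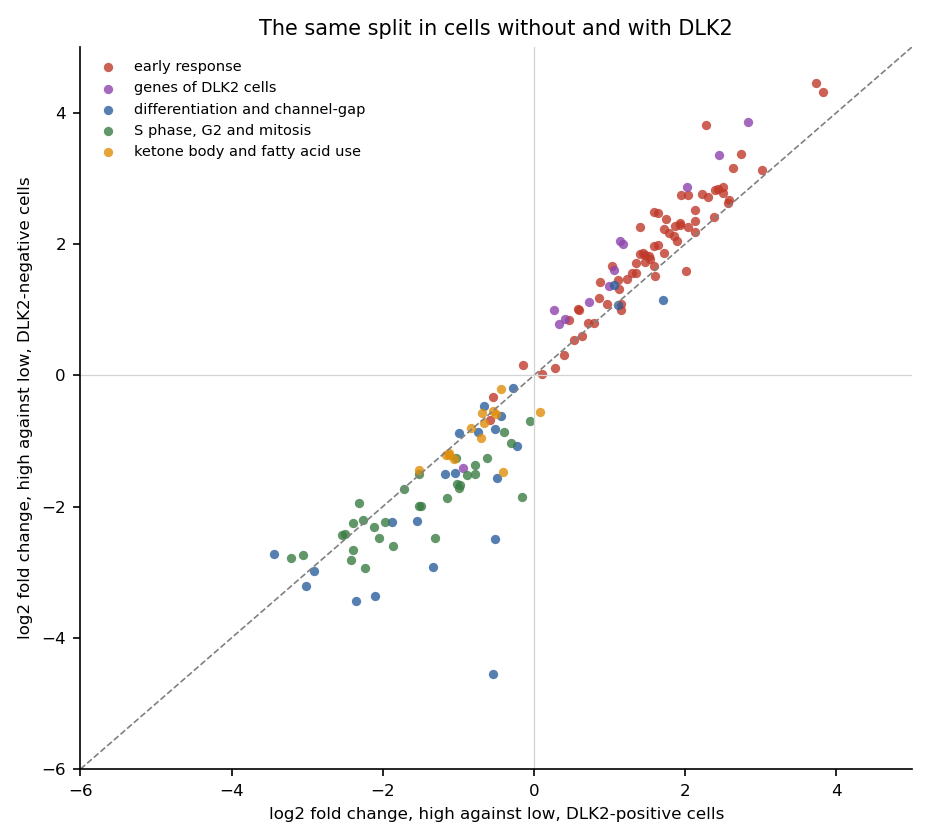
Log2 fold change of listed genes, high against low, in DLK2-positive cells (x axis) and in DLK2-negative cells (y axis), with the dashed line at equal change. Early response genes lie at the upper right and cell cycle genes at the lower left, with genes of DLK2 cells other than CCL20 above the line, and no gene passed the test of the difference between the axes.

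Markers of other cell types of the rumen wall were near 0. The authors had already removed other cell types by marker genes, which sets these low levels in part, in high and low cells alike. The fibroblast collagens COL1A1, COL1A2 and COL3A1 with DCN, the endothelial markers PECAM1 and CDH5, and the smooth muscle markers MYH11 and TAGLN had 0 UMIs over all selected cells, which allows up to 0.00365 UMIs per 10000 (3 counts). Summed levels of the lists reached 0.0674 per 10000 for fibroblast markers (0 to 0.0674 in high cells, 0.0231 to 0.0571 in low cells) and 0.0296 for endothelial markers (0.0124 to 0.0296 against 0.0209 to 0.0499). They were 0.148 to 0.279 for immune markers against 0.111 to 0.132 in low cells, and 0.0232 to 0.0371 for smooth muscle markers against 0.00365 to 0.0452. Of these markers 2 passed the test, CD68 (not without cow 3) and MYLK, with 89 and 11 UMIs in the selected cells. Most of these genes were too low to test, 1 of 8 fibroblast, 5 of 13 immune, 1 of 8 endothelial and 1 of 8 smooth muscle genes being left after the filter. The immune markers PTPRC and CD3E had 1 and 4 UMIs over all selected cells.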

How the data were processed

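Epithelial cells of 3 cows were analysed from the deposited UMI count matrix, which the authors made with Cell Ranger 3.1.0 and their filters on cells, including a search for doublets and the removal of other cell types; no doublet caller was run here. The authors also deposited natural log values of the same cells (1 plus UMIs per 10000), which matched the count matrix within 1e-06 at every value and gave the gene names in matrix order. Barcode suffixes gave the cow by the number in its title. No genome position was used.

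The members, the gene lists and the tests were chosen with earlier results of these data known. UMIs were summed per cow over high and low cells without and with DLK2 (12 sums, the lowest of high cells holding 809111 UMIs). The 8 genes read by the selection were left out, and edgeR 4.0.16 was run in R 4.3.3 with TMM factors, its filter on low counts, the quasi-likelihood test, the cow as a block, and adjustment by Benjamini-Hochberg across every gene tested in a contrast. SE is the size of the log2 fold change divided by the square root of F. The block was fitted because the sets of a cow come from the same animal and library. After group means were taken out, sums of the same cow correlated at 0.359 or more. Sums of different cows correlated at -0.081 or less, a sign that taking out the means of 3 cows itself brings about. Levels are UMIs per 10000 of the set's sum. The fits were tested on simulated data. Named genes are those of the lists, and the 10 called genes with the largest and the 10 with the smallest log2 fold change at 1 or more UMI per 10000. Some genes of the lists are not reported here by name. Genes with a passing difference between DLK2-negative and DLK2-positive cells would also have been named, and the main test found none. Each cow is 1 sample, so an exact sign-flip test of 3 pairs could not go under p = 0.25, and precision rests on 3 cows. Depth per cow was 38912809, 94856658 and 104189434 UMIs. Python 3.11.15, numpy 2.4.6, pandas 2.3.3, scipy 1.17.1, matplotlib 3.10.9 and DESeq2 1.42.0 were also used.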

Additional observations from a re-analysis of the deposited data

How the results depend on the processing

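The 1376 genes higher and 1664 lower in immediate-early-high cells stayed within 1.5 times under DESeq2, no filter on low counts, other fold thresholds, the top 5% or 20% of cells, comparison with the lower 90%, and a low mitochondrial share. The same held for 3 choices added after seeing the data (the same cut in every cow, no barcodes shared by libraries, and a sum scaled without mitochondrial UMIs). Leaving out each cow gave 993 to 1167 higher and 1060 to 1263 lower. Low cells matched on UMIs gave 601 and 478, cells with at least 12000 UMIs 592 and 535, and cells without UMIs of AOX1, PDK4 and SOSTDC1 667 and 720. These 3 choices also used fewer cells. Without TMM factors 1080 were lower, and 909 when cells were thinned to 3000 UMIs and chosen anew, which also took in cells that had lost their UMIs of DLK2 or GJA1. Of the genes called higher none was called lower under any of the 20 choices, and 1 called lower, CCL20, was called higher under the choice without AOX1, PDK4 and SOSTDC1.

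With no replicate block, 163 genes were higher and 137 lower, and 0 of the 6 summed genes passed when held out, against 6 with it and 6 under DESeq2 and without each cow. That fit has no term for the cow that both sets share. Genes whose change was larger or smaller in DLK2-negative cells numbered 2 and 0 in DESeq2, 22 and 7 without a filter on low counts, and 0 to 1 and 0 when a cow was left out. The cause of these differences was not tested. Of the values for the 20 genes at the extremes under these choices, 385 kept their call, 13 lost it without the block, and COX8B lost it among cells with at least 12000 UMIs (-0.97). None changed direction.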
